A study of Mus musculus with 151 samples.

Results

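Female germ cells of naturally conceived mice were compared at the start and at the end of oogenesis, as primordial germ cells (PGCs) at embryonic day 13.5 and as oocytes at 12 weeks of age. All Natural PGC libraries and all Natural 12-week single oocytes of the series were taken, which were 4 libraries of 100 PGCs each and 36 libraries of 1 oocyte each, or 40 of the 151 samples. The series profiled ovaries, germ cells and cumulus cells of mice conceived naturally or by IVF. Natural mice came from CF-1 females mated to B6/SJL males in their natural estrous cycle, without superovulation or embryo culture, and fetal gonads were taken from pregnancies stopped at E13.5. The adult females had been delivered by c-section near term and raised by foster mothers. Shortly before collection they were superovulated with eCG and then hCG, so these were hormonally stimulated, ovulated oocytes, stripped of cumulus cells with hyaluronidase. All samples were labelled female. The library names placed the oocytes in 5 sets, named here 35-1, 35-3, 92-3, 92-4 and 92-5, of 8, 8, 5, 8 and 7 oocytes, and values per set are given in that order. Oocytes of a set were taken to be collected together and were summed, so that the comparison was of 4 PGC libraries with 5 oocyte sums. The labels do not say whether the PGC libraries came from separate embryos or the sets from separate females. Set names begin with either 35 or 92, and sets that share this number may not be independent. The p-values therefore measure the spread between these libraries and sums. Stage could not be told apart from count table or number of cells per library, which both differed with it.

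At E13.5 female PGCs have finished migrating and erasing their DNA methylation, still carry pluripotency factors, and begin to enter meiosis in response to retinoic acid and BMP signals from the gonad. Their descendants arrest in meiotic prophase around birth, and those that grow build a zona pellucida, store mRNAs and proteins for the embryo and resume meiosis at ovulation. In the fully grown oocyte transcription stops, and mRNAs are managed by storage, poly(A) tail length and decay. Because the libraries were primed on poly(A) tails, fewer mRNA molecules and shorter tails could not be told apart.

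Total counts were 4364495 to 8036691 per PGC library, 839781 to 10879166 per single oocyte and 19624072 to 58259515 per oocyte sum. The pluripotency and germ cell genes Nanog, Sox2, Prdm14, Kit, Dazl and Ddx4 were counted in all 4 PGC libraries, and Zp1, Zp2, Zp3, Gdf9, Bmp15, Nlrp5 and Mos in all 5 oocyte sums. The 4 Y-linked genes held no count in either group, and the Sertoli markers Sox9 and Amh and the male germ cell marker Nanos2 held none in the PGCs. Markers of other cells were checked by their summed level. The summed level of 13 pregranulosa markers was 3.8 to 38.4 in PGCs, in CPM of the library total (raw CPM), and 64.1 to 97.2 in oocyte sums, against 1280 in whole E18.5 ovaries, and Gata4 alone made up 31.7 to 71.4 of the oocyte value. The 12 cumulus markers summed to 1.99 to 40.6 in PGCs and 33.4 to 181 in oocyte sums, against 9590 in the cumulus libraries of the series. The 10 stroma markers summed to at most 13.2 and 6.37, against 24100 in E18.5 ovaries. Of the markers tested, 5 of 6 pregranulosa, 6 of 8 cumulus, 3 of 3 stroma, 4 of 5 erythroid, 2 of 5 endothelial, 1 of 2 immune, 1 of 1 Sertoli and 2 of 4 male germ cell genes were higher in oocyte sums, beside 41.5% of all genes. In turn 1 endothelial and 2 male germ cell genes were lower, beside 37.2% of all genes. The part of these cells in the results was not tested. In PGCs the 8 endothelial markers summed to 109 to 227 raw CPM and the 5 male germ cell markers to 61.2 to 159, against 57.3 to 71.9 and 75.9 to 100.0 in oocytes and 573 and 112 in E18.5 ovaries. As sums these 2 lists were not far below whole ovary, and the male germ cell list was at its level. Most of each PGC sum came from 1 gene, Pecam1 at 90.6 to 216 raw CPM and Cd24a at 54.4 to 157. In E18.5 ovaries these genes were at 114 and 110. The sums therefore do not show how much of such cells the PGC libraries held.

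Some libraries stood apart from their group, and several results that rest on them are given with and without them. All other values are given with these libraries kept. PGC library 2 correlated at 0.874 to 0.905 with the other PGC libraries across 14543 genes, while those 3 correlated at 0.946 to 0.960 with each other. It held 265 genes at least 4-fold above and 75 at least 4-fold below all 3 others, whereas each of the others held 0 above and 1 or 2 below. Of 34 tested meiotic prophase genes, 29 were higher in library 2 than in each other library, and of 25 pluripotency and PGC genes 22 were lower, against 5653 and 4510 of all 14543 genes. Also 4 of the 36 oocytes stood apart, and they are described after the comparison of stages. Leaving them out before summing changed the number of genes called from 11438 to 11514.

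PGCs and oocytes differed in most of the transcriptome. Of 14543 genes tested with edgeR's quasi-likelihood test, 11438 passed a Benjamini-Hochberg adjusted p of 0.05, which is 78.6%. They divided into 6033 higher in oocytes (41.5%) and 5405 lower (37.2%). In 10436 genes (71.8%) the oocyte sums and the PGC libraries did not overlap. A narrower set, with a log2 fold change of at least 2 and no overlap, held 4396 genes higher (30.2%) and 3736 lower (25.7%). At this background a call is common, and the size of a change and the balance between directions within a gene list say more than a call does. No count at all was found in the PGC libraries for 699 tested genes, and in the oocyte sums for 164.

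The balance of directions depended on how libraries were scaled. TMM normalization, which assumes that most genes do not change, gave factors of 1.551 to 2.527 for PGC libraries and 0.5126 to 0.6457 for oocyte sums. With library size alone the log2 fold changes moved by a median of -1.76. The shift was not the same for every gene, and the median over oocyte multigene families went only from 17.29 to 16.98. With this scaling 3412 genes were called higher and 8182 lower, so that 29.4% of calls were higher in oocytes in place of 52.7%. The genes called in the same direction under TMM, RLE size factors and library size were 3412 higher (23.5%) and 5399 lower (37.1%). Levels below are CPM on the TMM scale unless stated, log2 fold changes are oocyte over PGC, and counts that hold "under all scalings" are those called the same way by all 3. Levels were not corrected for gene length and are compared between stages, not between genes.

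How counts were spread over the genome was compared in 4 measures, with an exact two-sided permutation test over the 4 PGC libraries and 5 oocyte sums and p-values adjusted over the 4. The smallest p that this design allows is 0.0159. Mitochondrially encoded genes took 5.90% ± 1.12 of counts in PGCs (SD, n = 4) and 0.447% ± 0.148 in oocytes (SD, n = 5; exact permutation p = 0.0159, adjusted 0.0212). Cytosolic ribosomal protein genes took 5.65% ± 1.18 (n = 4) and 0.0586% ± 0.0108 (n = 5), with the same exact p. The 100 most counted genes held 27.2% ± 5.47 of PGC counts (n = 4) and 45.6% ± 0.956 of oocyte counts (n = 5), again at the same exact p, so oocyte counts were concentrated in fewer genes. After thinning to 4364495 counts, 16528 ± 1590 genes were detected in PGC libraries (n = 4) and 15292 ± 650 in oocyte sums (n = 5), a difference of -1236 that did not pass (exact permutation p = 0.127). With the mean over single oocytes in place of the sum of a set the difference was -3074 and passed (adjusted exact permutation p = 0.0159).

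**Figure D1:**
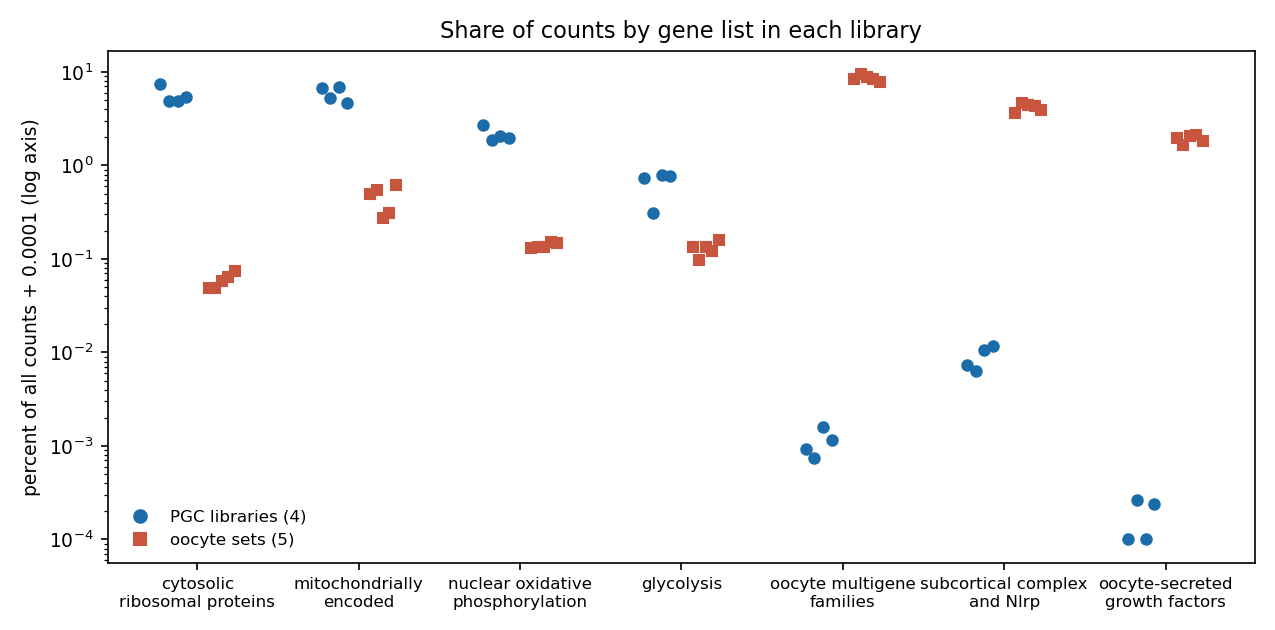
Share of all counts taken by 7 gene lists in each of the 4 PGC libraries (circles) and 5 oocyte sums (squares), on a log axis in percent with 0.0001 added. Ribosomal protein genes fell from 4.92 to 7.39% of counts to 0.0483 to 0.0736%, and oocyte multigene families rose from 0.000647 to 0.00151% to 7.89 to 9.5%.

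The genes with the most counts had little in common between the stages. In PGCs they were LOC101056014, a non-coding RNA in RefSeq (2.95% of counts on average), the mitochondrial genes COX1 (2.52%), CYTB (1.49%) and ND1 (1.29%), and the translation elongation factor Eef1a1 (0.87%). In oocytes they were Spin1, a reader of histone methylation (3.34%), Zbed3 (2.71%), the oocyte linker histone H1foo (1.56%), the growth factor Gdf9 (1.56%) and the homeobox gene Obox5 (1.4%). Spin1 stood at 70.9 to 87.4 CPM in PGCs and at 49940 to 65010 in oocytes (log2 fold change 9.48, SE 0.31). Eef1a1 went the other way, from 2326 to 7963 CPM to 76.0 to 249 (log2 fold change -5.19, SE 0.46).

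Regulators of PGC identity and pluripotency were lower in oocytes. Of 25 tested members of this list 17 were lower and 5 higher, with a median log2 fold change of -5.28 beside 0.17 over all genes tested. In percent this was 68.0% and 20.0%, beside 37.2% and 41.5% of all genes. The 17 held under all 3 scalings, and 2 of the 5 did. Nanog, a core pluripotency transcription factor (chr6:122707489-122714633, GRCm38.p6), stood at 110, 15.1, 194 and 169 CPM in PGC libraries 1 to 4 and at 0.704, 0.740, 0.869, 0.656 and 1.14 CPM in the oocyte sums (log2 fold change -7.20, SE 0.66, adjusted p = 1.03e-06). Sox2, its partner in the same network, stood at 17.4, 23.0, 26.4 and 26.4 CPM and at 0.737, 0.740, 0.474, 0.463 and 0.532 CPM (log2 fold change -5.28). Prdm14, a repressor needed to specify PGCs, fell from 35.9, 10.5, 40.1 and 44.0 CPM to between 0 and 0.309 CPM (log2 fold change -7.66). The groups did not overlap for any of the 3, and library 2 was the lowest PGC library for Nanog and Prdm14.

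Other members of the list fell as far. The RNA-binding protein gene Dnd1, which protects germ cell mRNAs, went from 64.3 to 495 CPM to 0.632 to 1.88 (log2 fold change -7.82). The embryonic RNA-binding gene Dppa5a went from 1218, 185, 2031 and 1303 CPM to 19.4, 23.1, 5.61, 21.1 and 5.04 CPM (log2 fold change -6.31). Alpl, the tissue-nonspecific alkaline phosphatase long used to stain PGCs, went from 86.6 to 250 CPM to 2.13 to 5.59 (log2 fold change -5.68). Dppa4 fell by 9.21 and Gdf3, a TGF-beta family ligand of pluripotent cells, by 8.78 on the log2 scale.

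Not every pluripotency gene was lower. Pou5f1, which encodes OCT4 (chr17:35506032-35510777), was at 119, 36.5, 122 and 103 CPM in PGCs and at 116, 251, 112, 132 and 151 CPM in oocytes, with overlapping ranges. Its log2 fold change of 0.68 did not pass (adjusted p = 0.0994), and with library size alone it was -0.98. Dppa3, a maternal factor that guards the methylation of the maternal genome after fertilization, was at 847, 180, 597 and 443 CPM in PGCs and at 2268, 2045, 2134, 2921 and 2491 CPM in oocytes (log2 fold change 2.20, SE 0.38, adjusted p = 0.000188), a rise that was 0.56 and not called with library size alone. Lin28a, which blocks maturation of let-7 miRNAs, rose from 34.9 to 53.3 CPM to 180 to 349 (log2 fold change 2.58). Tcl1, a cofactor of the kinase AKT, rose from 23.2 to 150 CPM to 14870 to 18770 (log2 fold change 7.43). Dppa2 (0.13) and Tfap2c (-0.59) were not called.

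The largest falls centred on one X-linked homeobox cluster. Among named genes with at least 10 counts in every PGC library, the 10 largest falls included those of Rhox9, Rhox6, Utf1, Ifitm1, Liph, Mogat2, Rhox5, Calcoco2 and Nid2. Rhox9 (chrX:37899097-37901770) stood at 1999, 302, 1354 and 793 CPM in PGCs and had no count in any of the 36 oocytes, at least 8140-fold lower when 3 counts per library are taken as the floor. Rhox6, of the same cluster, stood at 1378, 194, 1085 and 616 CPM and had no oocyte count, at least 5990-fold lower. All 14 Rhox genes that were tested were lower in oocytes, beside 37.2% of all genes, out of 33 Rhox names in the table. Genes absent from oocytes could pass the filter on low counts only through the PGC libraries, which fixed their direction in advance. Most of these Rhox genes had no oocyte count, so the number called lower is a description. The Rhox2 and Rhox4 genes are near-identical copies, whose reads the counting could have split, and 11 of these 14 stood below 30 CPM in every library.

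Utf1, a chromatin factor of pluripotent cells (chr7:139943856-139945112), was at 287, 64.7, 316 and 266 CPM in PGCs and had 2 counts in the oocytes, both in 1 oocyte, a ratio of 11900-fold with a 95% counting interval of 3300 to 98400 (log2 fold change -13.30, SE 0.76). Ifitm1, an interferon-induced membrane protein gene expressed in early PGCs, was at 521, 133, 390 and 354 CPM and had counts in 2 oocytes (log2 fold change -13.10, SE 0.75). Nid2, which encodes a basement membrane protein, fell by 11.60 on the log2 scale.

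**Figure D2:**
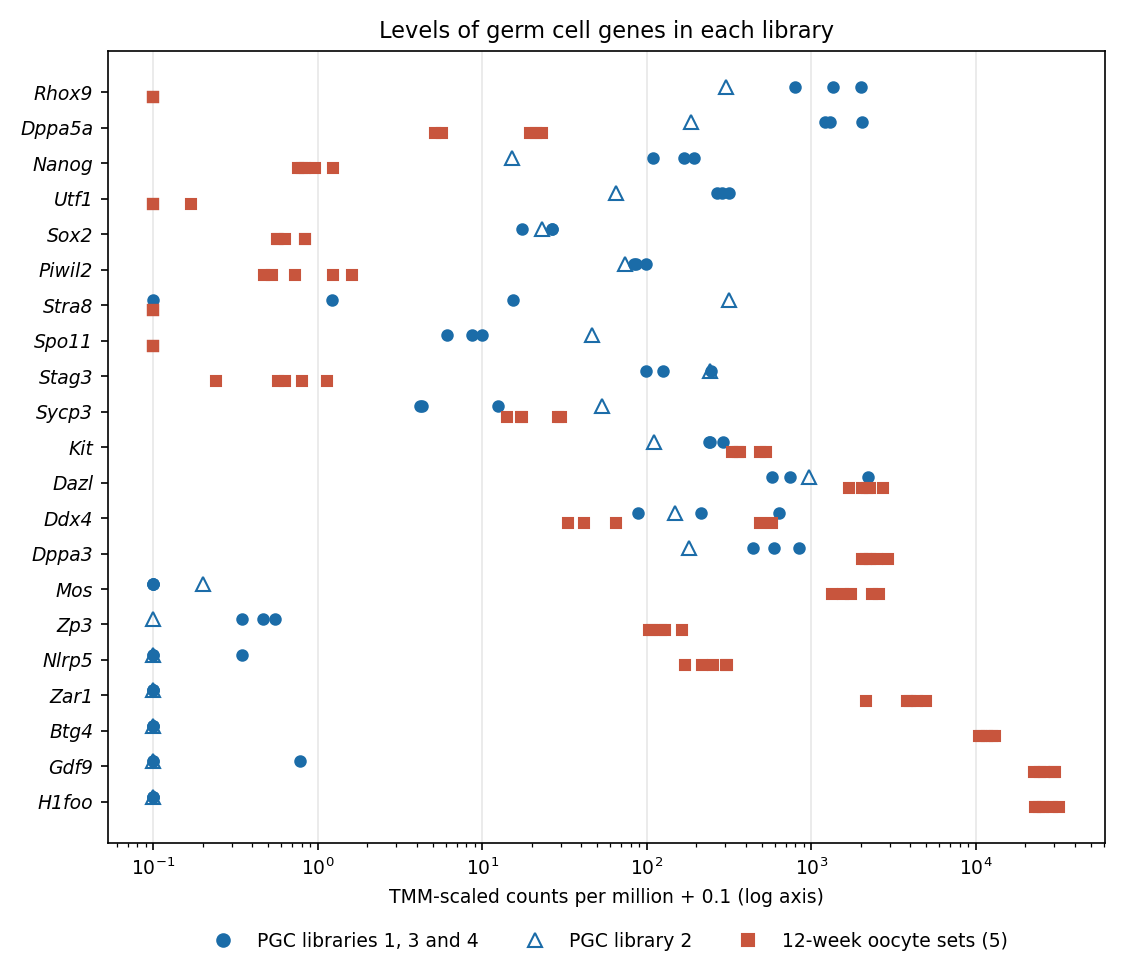
Levels of 21 germ cell genes in each library, in TMM-scaled CPM with 0.1 added, on a log axis; filled circles are PGC libraries 1, 3 and 4, open triangles PGC library 2 and squares the 5 oocyte sums. PGC genes such as Rhox9, Nanog and Utf1 separate to the right in PGCs, oocyte genes such as Btg4, Gdf9 and H1foo to the right in oocytes, and Stra8, Spo11 and Sycp3 are highest in PGC library 2.

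Signals of meiotic entry were PGC-high. Of 19 tested genes of retinoic acid and BMP signalling, 12 were lower in oocytes (63.2%) and 3 higher (15.8%). Among all genes the shares were 37.2% and 41.5%. The median log2 fold change of the list was -2.44, and 12 and 2 held under all scalings. The BMP target genes Id1, Id3 and Msx2 fell by 5.54, 5.24 and 8.47 on the log2 scale. Id1 was at 55.9, 55.9, 26.8 and 49.6 CPM in PGCs and at 0.474 to 1.81 CPM in oocytes. Zglp1, a transcription factor that switches the oogenic programme on downstream of BMP, was at 18.4, 16.6, 10.2 and 16.5 CPM and at 0 to 0.923 CPM (log2 fold change -5.30, SE 0.66). Crabp1, a carrier of retinoic acid, was at 5.19 to 11.7 CPM and without a count in oocytes, at least 65.9-fold lower. The 3 other genes called were of BMP signal transduction and higher in oocytes, namely the receptor Bmpr2 (4.31) and the SMAD mediators Smad1 (3.42) and Smad4 (2.42).

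Stra8, the retinoic acid target that opens the meiotic programme (chr6:34920163-34939344), was uneven among PGC libraries. It stood at 15.2, 317, 0 and 1.13 CPM in libraries 1 to 4 and had no count in any oocyte, and it did not pass the filter on low counts. Its partner Gm4969, which is Meiosin, was at 6.88, 64.5, 2.82 and 1.69 CPM and at 0.536 to 1.97 CPM in oocytes (log2 fold change -4.08, SE 0.97). Library 2 was the highest for both.

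Meiotic prophase genes did not move together, and their balance rested on PGC library 2. Of 34 tested, 15 were lower in oocytes and 7 higher with a median of -1.31, and 15 and 1 held under all scalings. These were 44.1% and 20.6%, beside 37.2% and 41.5% of all genes. Without library 2, 13 were lower and 13 higher and the median was 1.00. Spo11, the enzyme that makes the meiotic double-strand breaks (chr2:172977379-172993576), was at 9.82, 46.5, 8.56 and 5.98 CPM in PGCs and without a count in oocytes, at least 130-fold lower, or at least 59.4-fold without library 2. Sycp3, a lateral element of the synaptonemal complex, was at 12.4, 53.2, 4.10 and 4.18 CPM and at 28.9, 14.1, 17.1, 17.4 and 30.2 CPM in oocytes. Its log2 fold change was 0.21 (adjusted p = 0.779), 1.69 without library 2 (adjusted p = 0.00387) and -1.76 with library size alone. Sycp1 of the central region was at 13.3, 118, 7.19 and 3.27 CPM and at 8.98 to 23.6 CPM in oocytes and was not called (-1.22, and 0.99 without library 2).

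Members within the prophase list went opposite ways. Syce1, Meioc, Psmc3ip and Rec114 were lower, with log2 fold changes from -6.34 to -3.58. Sycp2, Terb1 and Msh4 rose by 3.65, 3.67 and 4.06, and Msh4, a recombination protein, reached 75.4 to 174 CPM in oocytes from 1.47 to 16.5 CPM in PGCs. These levels in oocytes were measured months after prophase, in poly(A) RNA only.

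Cohesin holds sister chromatids together, and the mRNAs of 3 meiotic subunits were PGC-high. Rec8, the meiotic kleisin, stood at 43.4, 166, 5.64 and 9.82 CPM in PGCs and at 0, 0, 0, 0.116 and 0 CPM in oocytes (log2 fold change -10.81, SE 1.32, adjusted p = 1.26e-05), with 3838 counts against 3, a ratio of 3220-fold (95% counting interval 1100 to 15600). Without PGC library 2 it was 502 counts against 3, or 723-fold (246 to 3520). Stag3, the meiotic stromal antigen (chr5:138272514-138312397), was at 247, 243, 98.3 and 126 CPM and at 0.536, 0.699, 0.474, 1.04 and 0.142 CPM (log2 fold change -8.25, SE 0.53). Smc1b was at 210, 397, 75.2 and 62.5 CPM and at 35.7, 19.6, 18.2, 20.1 and 21.9 CPM (log2 fold change -3.01). The groups did not overlap for these 3 genes. Esco1 and Esco2, which establish cohesion, were higher by 4.01 and 2.60, and so was Pttg1, which is securin, by 6.33. Wapl, which releases cohesin, was higher by 2.08, and by 0.33 with library size alone. Over the list 11 of 21 were higher and 7 lower, 4 and 7 under all scalings, which is 19.0% and 33.3% beside 23.5% and 37.1% of all genes.

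Genes of the growing oocyte were mostly absent from PGCs. Genes absent from PGCs could pass the filter on low counts only through the oocyte sums, which fixed their direction in advance. For such genes the numbers of members called higher are a description. Of 11 tested oocyte transcription factors 8 were higher and 1 lower (median 8.81, or 7.47 with genes lacking PGC counts set at their bound), and all 9 held under every scaling. Nobox, a homeobox factor required for follicle formation (chr6:43303674-43310072), was at 0.737, 0.199, 0 and 0 CPM in PGCs and at 85.9, 110, 88.0, 117 and 91.7 CPM in oocytes (log2 fold change 8.81, SE 0.63). Lhx8 had counts only in PGC library 2, at 0.199 CPM, and stood at 37.9, 70.3, 41.9, 53.3 and 42.3 CPM in oocytes (log2 fold change 9.18). Foxo3, which keeps primordial follicles dormant, rose from 13.9 to 23.1 CPM to 329 to 559 (log2 fold change 4.53, SE 0.26). Tbpl2, the oocyte TBP relative, had no PGC count and 25.5 to 27.6 CPM in oocytes, at least 92.6-fold higher.

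The germ cell helix-loop-helix factors behaved differently. Sohlh2 was lower in oocytes, at 137, 68.7, 67.6 and 33.1 CPM in PGCs and 13.6, 29.4, 21.4, 24.5 and 19.9 CPM in oocytes (log2 fold change -1.82, SE 0.37). Figla, which activates zona pellucida genes at birth, was at 0, 6.33, 0.182 and 0 CPM in PGCs and at 2.21 to 3.95 CPM in oocytes. Its log2 fold change was 0.85 and not called (adjusted p = 0.502), and 5.37 without PGC library 2 (adjusted p = 0.000105).

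The egg coat and its sperm-interaction genes were oocyte-high in 8 of 10 tested (median 12.68, 9.06 with bounds), in all scalings. Zp1, Zp2 and Zp3 encode the matrix of the zona pellucida. Zp1 had no PGC count and was at 144, 131, 137, 184 and 149 CPM in oocytes, at least 528-fold higher. Zp2 had 0.182 CPM in PGC library 3 alone and 134, 124, 116, 168 and 137 CPM in oocytes (log2 fold change 11.44, SE 0.55), a ratio of 3310-fold with a counting interval of 918 to 27400. Zp3 (chr5:135980105-135988624) was at 0.246, 0, 0.364 and 0.452 CPM and at 162, 104, 122, 129 and 108 CPM (log2 fold change 9.08, SE 0.57). Oosp1, an oocyte-secreted protein, and Astl, the protease ovastacin that hardens the zona after fertilization, had no PGC count and were at least 8570-fold and 2920-fold higher. Cd9, the egg membrane tetraspanin needed for sperm fusion, was the exception and fell from 35.9 to 44.0 CPM to 6.56 to 8.06 (log2 fold change -2.50, SE 0.21).

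All 4 growth factors secreted by oocytes rose, under all scalings. Gdf9, which drives growth of the surrounding granulosa cells (chr11:53430774-53437904), was at 0, 0, 0 and 0.677 CPM in PGCs and at 30340, 22550, 26090, 29890 and 24530 CPM in oocytes (log2 fold change 17.55, SE 0.88, adjusted p = 1.24e-08), with all PGC counts in library 4. Its X-linked partner Bmp15 had no PGC count and 8295, 5705, 5647, 6573 and 5255 CPM in oocytes, at least 22300-fold higher. Bmp6 and Fgf8, which instruct cumulus cells, reached 40.6 to 63.4 and 3.42 to 6.40 CPM.

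The subcortical maternal complex, a protein lattice that embryos need for their first cleavages, and the reproductive Nlrp genes rose in all 17 tested members (median 12.30), 16 of them under all scalings. With at least 10 counts in every library only 3 members were tested, and these 3 were higher. Nlrp5, or Mater (chr7:23385889-23441923), was at 0.246, 0, 0 and 0 CPM and at 252, 215, 170, 302 and 305 CPM (log2 fold change 12.30, SE 0.62), a ratio of 6220-fold (1720 to 51400) that rests on 2 PGC counts. Zbed3 was at 0.614, 1.10, 1.82 and 1.13 CPM and at 43160, 55370, 43890, 48900 and 39650 CPM (log2 fold change 15.25, SE 0.47). Padi6, a peptidylarginine deiminase of the cytoplasmic lattices, was at 0, 0, 0 and 0.226 CPM and at 1389, 679, 1741, 1866 and 1264 CPM, a ratio of 32600-fold (9020 to 269000), also on 2 PGC counts. Members with more PGC counts rose less, such as Ooep (7.95), Khdc3 (4.41), Tle6 (4.24) and Nlrp4c (1.59, -0.09 with library size alone).

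The 10 largest rises among named genes were those of H1foo, Obox5, Obox2, Obox1, Trim61, D6Ertd527e, Bcl2l10, Btg4, Oas1e and C86187, none of which had a count in any PGC library. H1foo, the linker histone of oocytes (chr6:115944931-115950242), was at 28990, 22870, 25410, 32180 and 24090 CPM in oocytes, at least 94600-fold higher. Obox5, a homeobox gene of a cluster on chromosome 7, was at 25850, 25460, 24960, 23630 and 19550 CPM, at least 84600-fold higher. In all, 30 of 30 tested members of oocyte multigene families, which include Oog, Oas1, Obox, Tcl1b, Omt2 and Fbxw genes, were higher, under all scalings too (median 17.29, 13.88 with bounds). With at least 10 counts in every library only 1 member was tested, so this direction was largely fixed by the filter. Reads of near-identical copies in these families could have been split or dropped in counting, so values of single members are uncertain.

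Promoter sequence is a feature that the comparison of stages did not use. The 250 bases before the RefSeq start were available for 11237 of the tested genes, which is 77.3%. The ratio of observed to expected CpG, low in promoters without a CpG island, had a median of 0.71 over all of them and fell below 0.4 in 20.7%. Low ratios were common at both ends. Among genes with no PGC count the median was 0.22, with 77.2% below 0.4 (486 genes), among genes with no oocyte count 0.36, with 56.5% (115 genes), and among the oocyte gene lists 0.15 with 83.3% below 0.4 (48 genes). The genes with a log2 fold change of 2 or more and no overlap had 0.62 when higher (33.1% below 0.4) and 0.71 when lower. Nuclear genes of oxidative phosphorylation and cytosolic ribosomal proteins, which are expressed in nearly every cell, had 0.78 and 0.81, with 3.08% and 3.33% below 0.4.

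E-boxes, the sites of helix-loop-helix factors such as FIGLA, SOHLH1 and SOHLH2, were also more frequent in oocyte gene promoters. The letters CANNTG, which read the same on both strands, were present in 58.4% of all promoters, 91.7% of the 48 oocyte gene promoters, 77.8% of those without a PGC count, 67.0% of those without an oocyte count, 61.5% of those strongly higher and 57.9% of those strongly lower. A match describes the letters and not a bound site, and promoters of one gene family share sequence. The stretches below hold the 200 bases before the RefSeq start, 5′ to 3′ on the plus strand in GRCm38.p6, with CANNTG in capitals. They are examples, the first 4 of genes that rose to high levels and the last 2 of genes among the 10 largest falls. Zp3 lies at chr5:135979905-135980104, Zbed3 at chr13:95323405-95323604, Btg4 at chr9:51115801-51116000, Obox5 at chr7:15750170-15750369, Utf1 at chr7:139943656-139943855 and Ifitm1 at chr7:140967876-140968075. The Btg4 and Ifitm1 windows lie inside the annotated gene, before a downstream transcript start.
Zp3: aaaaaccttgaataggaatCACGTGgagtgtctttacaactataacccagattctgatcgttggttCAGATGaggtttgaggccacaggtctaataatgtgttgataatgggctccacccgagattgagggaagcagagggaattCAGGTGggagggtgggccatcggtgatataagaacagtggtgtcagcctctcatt
Zbed3: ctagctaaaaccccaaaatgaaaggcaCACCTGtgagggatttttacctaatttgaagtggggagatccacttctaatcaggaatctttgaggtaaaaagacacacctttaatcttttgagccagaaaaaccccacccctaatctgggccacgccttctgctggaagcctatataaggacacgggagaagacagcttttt
Btg4: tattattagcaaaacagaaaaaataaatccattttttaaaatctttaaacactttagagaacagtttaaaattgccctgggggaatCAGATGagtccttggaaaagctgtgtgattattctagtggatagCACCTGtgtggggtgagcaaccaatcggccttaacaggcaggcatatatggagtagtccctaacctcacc
Obox5: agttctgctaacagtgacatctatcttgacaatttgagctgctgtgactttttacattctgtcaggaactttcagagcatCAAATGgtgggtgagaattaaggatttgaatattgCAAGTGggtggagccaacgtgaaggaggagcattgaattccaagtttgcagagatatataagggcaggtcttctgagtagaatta
Utf1: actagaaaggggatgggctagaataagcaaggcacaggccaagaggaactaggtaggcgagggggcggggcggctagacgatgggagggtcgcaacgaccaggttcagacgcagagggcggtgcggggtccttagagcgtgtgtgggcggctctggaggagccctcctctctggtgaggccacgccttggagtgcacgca
Ifitm1: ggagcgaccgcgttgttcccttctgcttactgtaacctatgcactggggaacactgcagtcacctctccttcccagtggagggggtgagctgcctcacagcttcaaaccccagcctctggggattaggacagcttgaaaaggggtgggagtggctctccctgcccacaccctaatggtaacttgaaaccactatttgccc

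Zp3 held matches that begin at -181, -134 and -55, of which the first is the palindrome CACGTG found in 8.43% of all promoters. Zbed3 held one at -173, Btg4 at -114 and -70, and Obox5 at -120 and -85. No match occurred in these 200 bases of Utf1 and Ifitm1. Over the 250 bases the CpG ratio was 0.43 for Zp3, 0.17 for Zbed3, 0.11 for Btg4, 0.1 for Obox5, 0.64 for Utf1 and 0.23 for Ifitm1, so a low ratio was not limited to genes that rose.

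Genes that store, mask, tail and degrade maternal mRNA were higher in oocytes in 22 of 29 tested and lower in 4 (median 3.01), 15 and 4 under all scalings. The 22 and 4 were 75.9% and 13.8%, beside 41.5% and 37.2% of all genes. Btg4, an adaptor that brings the deadenylase to maternal mRNAs, had no PGC count and was at 13150, 11760, 10510, 12580 and 10720 CPM in oocytes, at least 41600-fold higher. Zar1, an mRNA-binding protein of oocyte mitochondria-associated stores, had none and was at 4940, 3815, 2143, 4413 and 3984 CPM, at least 13700-fold higher. The deadenylase subunits Cnot7, Cnot8 and Cnot6l rose by 5.74, 4.82 and 4.77 and the decapping enzymes Dcp1a and Dcp2 by 6.94 and 3.32, while the scaffold Cnot1 fell by 1.85 on the log2 scale. Cpeb1, which masks mRNAs until maturation, was at 121, 142, 75.8 and 68.5 CPM and at 567, 385, 456, 594 and 411 CPM (log2 fold change 2.24, and 0.45 and not called with library size alone).

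Some regulators of this kind were PGC-high. Zcchc11, the uridylyltransferase TUT4, fell from 15.5 to 52.3 CPM to 0.288 to 1.35 (log2 fold change -5.01), while Zcchc6, or TUT7, rose by 2.32. Ybx2, or MSY2, an abundant mRNA-packaging protein of oocytes, was at 9.21, 55.2, 7.56 and 9.14 CPM in PGCs and at 3.55, 8.26, 6.48, 7.57 and 6.96 CPM in oocytes. Its log2 fold change of -1.64 (adjusted p = 0.0208) was -0.37 without PGC library 2 (adjusted p = 0.329).

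Genes of meiotic arrest, resumption and the spindle checkpoint were higher in 22 of 34 tested and lower in 9 (median 1.67). The 22 and 9 were 64.7% and 26.5%, beside 41.5% and 37.2% of all genes. Under all scalings 15 and 9 held, or 44.1% and 26.5% beside 23.5% and 37.1% of all genes. With library size alone the median was -0.14, beside -1.62 over all genes. Gpr3, the receptor whose cAMP signal holds arrest, was at 0.246, 0.997, 0.364 and 0.226 CPM and at 108, 68.3, 55.7, 64.7 and 51.0 CPM (log2 fold change 7.04, SE 0.49). Pde3a, the phosphodiesterase that ends that signal, was at 0 to 0.997 CPM and at 440, 333, 322, 423 and 393 CPM (log2 fold change 9.15, SE 0.54). Mos, the kinase that holds metaphase II (chr4:3870658-3872105), had 0.0997 CPM in PGC library 2 alone and 2586, 1741, 1566, 2346 and 1336 CPM in oocytes (log2 fold change 15.31, SE 0.58), a ratio of 47200-fold (13100 to 390000) on 2 PGC counts. Ccnb1, or cyclin B1, was present in both, at 1071, 125, 694 and 684 CPM and at 10290, 9759, 7602, 7490 and 7221 CPM (log2 fold change 3.72). The mRNA of its kinase Cdk1 was PGC-high, at 33.6 to 72.1 CPM against 1.27 to 1.70 CPM (log2 fold change -5.12, SE 0.29). Plat, a secreted plasminogen activator whose mRNA is known to be stored in oocytes, rose by 15.67, and Bub1b and Mad2l1 of the spindle checkpoint by 5.50 and 3.01, while Bub1 fell by 3.03 on the log2 scale.

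**Figure D3:**
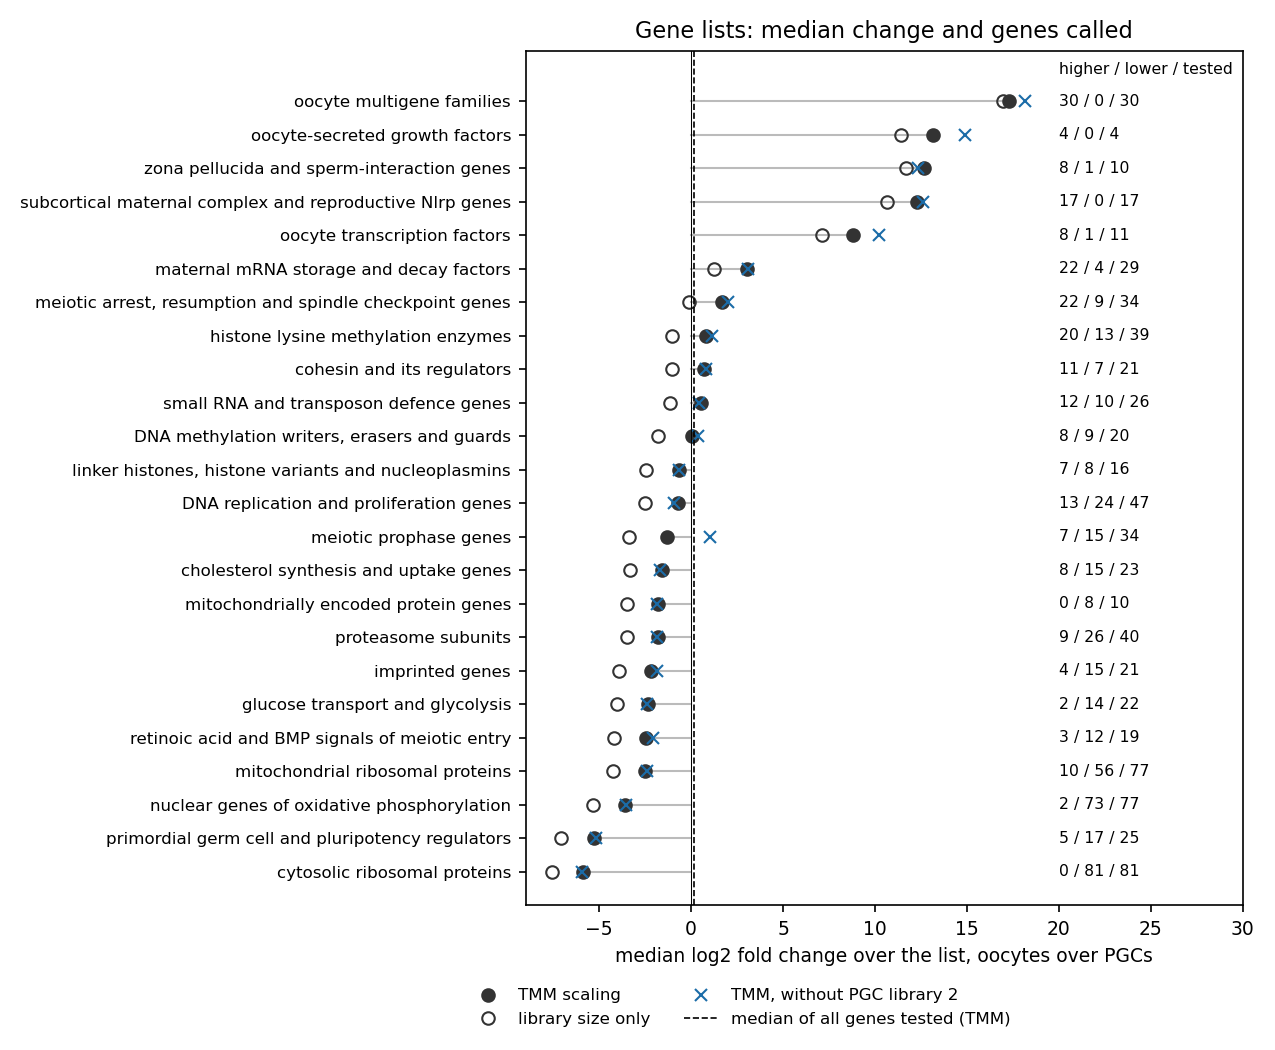
Median log2 fold change (oocytes over PGCs) of 24 gene lists under TMM scaling (filled), library size only (open) and TMM without PGC library 2 (crosses); the dashed line is the median of all genes tested, 0.17, and the numbers give members higher, lower and tested. With library size only, the medians of all 24 lists lie further left, and leaving out PGC library 2 moves the meiotic prophase list from -1.31 to 1.00.

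The balance between related genes shifted in most of the pairs examined. Related genes were compared in 28 pairs, by the log2 ratio of the first to the second member within a library (1 CPM added to each). The first was listed as the germline and the second as the broad member, but expression in other tissues was not examined and the names may not hold for every pair. In every oocyte sum the ratio was above that of every PGC library for 17 pairs. It was below for 6 and overlapping for 5, beside 71.8% of single genes without overlap. Ratios were not corrected for length, so only their change is read, and being ratios within a library they do not depend on scaling beyond the added CPM. The inhibitory CDK1 kinases and the 5-methylcytosine dioxygenases changed by the most. Wee1 went from 112, 61.7, 104 and 132 CPM in PGCs to 3.72, 4.69, 8.37, 4.83 and 6.85 CPM in oocytes, and Wee2 from 0, 0.897, 0 and 0 CPM to 1989, 2024, 1273, 1721 and 1581 CPM, a change of 14.44 in the log2 ratio (14.89 without PGC library 2). Tet1 went from 124, 55.7, 144 and 152 CPM to 6.77, 7.81, 5.05, 5.87 and 7.42 CPM, and Tet3 from 0, 6.88, 0 and 0 CPM to 2233, 1604, 2157, 2214 and 1653 CPM, a change of 14.08 (15.15 without PGC library 2).

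Other pairs moved by less or through 1 member. The ratio of Btg4 to Btg1 changed by 12.41, Bcl2l10 to Bcl2l1 by 10.88, H1foo to H1f0 by 10.82, Padi6 to Padi4 by 10.32 and the poly(A)-binding Pabpc1l to Pabpc1 by 10.24. In the H1foo and Bcl2l10 pairs the second member also rose, by 3.97 and 2.75. For Hspa2 and Hspa8 the change of 7.07 came from the fall of the chaperone Hspa8, from 7063, 1252, 3210 and 2800 CPM to 49.3, 24.5, 33.2, 58.0 and 79.9 CPM. In the opposite direction Stag3 to Stag2 changed by -9.46, Rec8 to Rad21 by -3.85, Taf4b to Taf4 by -3.62, Cpeb1 to Cpeb4 by -3.25, Ybx2 to Ybx1 by -2.62 and Smc1b to Smc1a by -2.40. Without PGC library 2 the changes of Rec8, Ybx2 and Smc1b to their partners were -2.77, -1.60 and -1.81. Dnmt3a to Dnmt3b, Sgol2a to Sgol1, Ccnb3 to Ccnb1 and Cdc25b to Cdc25a were among the pairs with overlapping ranges.

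**Figure D4:**
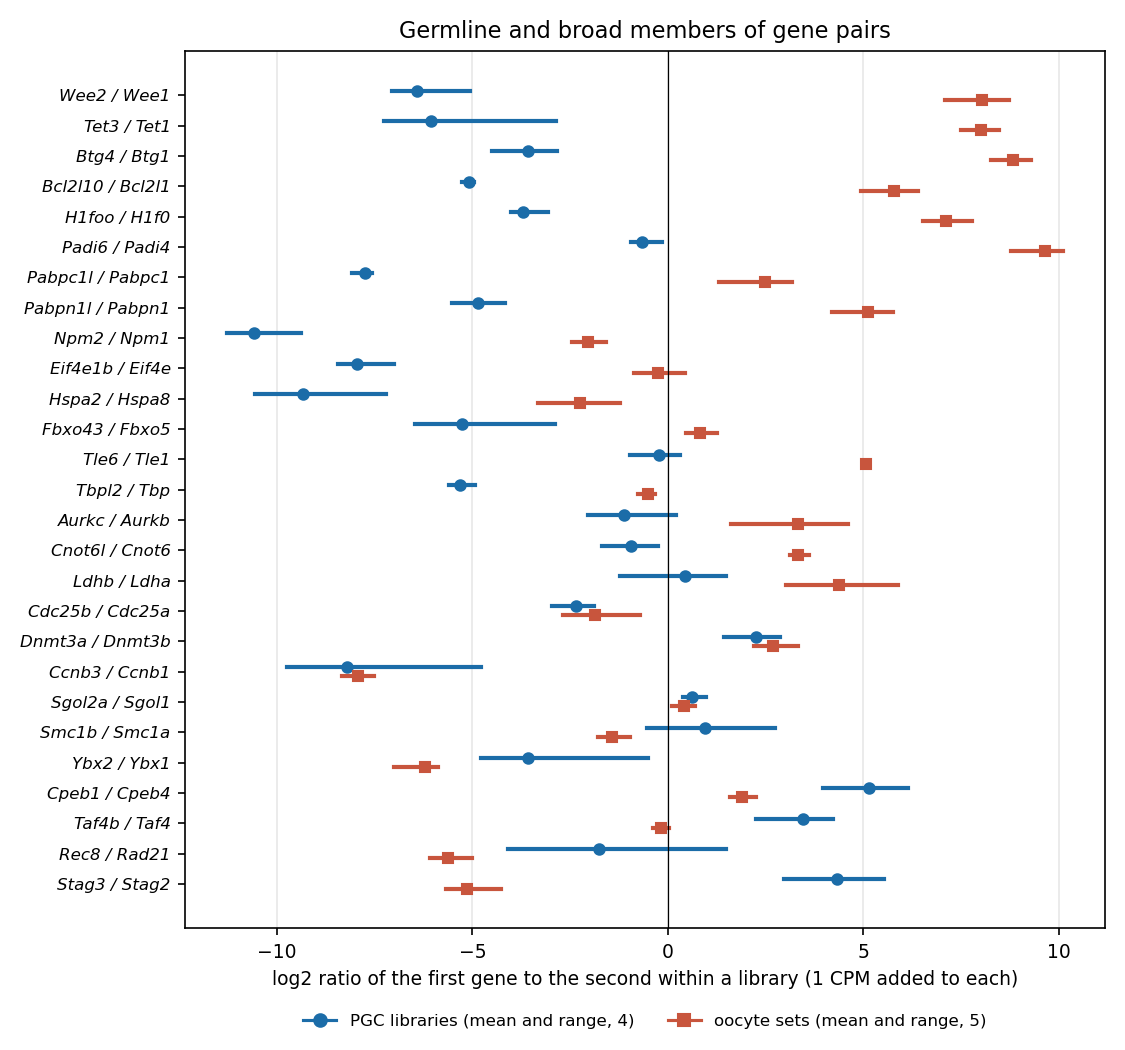
Log2 ratio of the first member (listed as germline) to the second (listed as broad) for 27 of the 28 gene pairs within each library, 1 CPM added to each; points are means and bars the range over 4 PGC libraries (circles) and 5 oocyte sums (squares). The pairs run from Wee2 over Wee1, which changed by 14.44, to Stag3 over Stag2, which changed by -9.46.

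DNA methylation is absent from most of the genome of PGCs and is laid down again in growing oocytes. The genes that write, erase and guard it were higher in 8 of 20 and lower in 9 (median 0.02), 6 and 9 under all scalings. That is 40.0% and 45.0%, near the 41.5% and 37.2% of all genes. The de novo methyltransferase Dnmt3a rose from 19.3, 29.0, 23.8 and 14.9 CPM to 402, 335, 378, 556 and 440 CPM (log2 fold change 4.28, SE 0.28). Its cofactor Dnmt3l had no PGC count and was at 25.0, 20.7, 21.0, 21.9 and 17.9 CPM, at least 75.4-fold higher. Uhrf1, which recruits DNMT1 to replicated DNA, was at 29.1, 68.6, 8.65 and 9.03 CPM and at 1844, 1320, 1450, 1773 and 1992 CPM (log2 fold change 5.85, SE 0.66, and 6.79 without PGC library 2). Dnmt1 itself rose from 299, 140, 226 and 214 CPM to 1089, 653, 735, 1026 and 718 CPM (log2 fold change 1.94, and 0.23 and not called with library size alone). Zfp57, a guardian of imprints, rose by 8.78, whereas Tdg, Mbd1, Mbd3 and Uhrf2 fell by 5.32, 3.55, 2.93 and 3.68 on the log2 scale.

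Imprinted genes, which PGCs express without allele marks, were lower in 15 of 21 tested and higher in 4 (median -2.17), 15 and 2 under all scalings. The 15 and 4 were 71.4% and 19.0%, beside 37.2% and 41.5% of all genes. H19 was at 7.86, 31.4, 12.4 and 6.77 CPM in PGCs and without a count in all oocytes, at least 107-fold lower, or at least 65.9-fold without PGC library 2. Peg3 (chr7:6703892-6730462) was at 297, 93.2, 445 and 270 CPM and at 12.2, 8.84, 8.37, 9.61 and 8.88 CPM (log2 fold change -4.85, SE 0.39). Mest went the other way, from 3.31, 3.79, 9.74 and 6.66 CPM to 428, 342, 301, 356 and 322 CPM (log2 fold change 5.90, SE 0.37). Both genes are expressed from the paternal allele in somatic tissues, and allele was not measured here.

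Histone lysine methylation enzymes were higher in 20 of 39 tested and lower in 13 (median 0.82), 5 and 13 under all scalings, or 12.8% and 33.3% beside 23.5% and 37.1% of all genes. Ezh2, the catalytic subunit of Polycomb complex 2, was at 47.8, 52.4, 55.1 and 59.7 CPM and at 1315, 1297, 838, 1021 and 1202 CPM (log2 fold change 4.4, SE 0.23). Kdm1b, the H3K4 demethylase that oocytes need to methylate imprinted regions, was at 49.1, 32.4, 24.5 and 13.6 CPM and at 397, 337, 391, 471 and 621 CPM (log2 fold change 3.89, SE 0.38). Kdm5b, Kdm5a, Kmt2a and Ehmt2 were among those lower, at -3.67, -4.94, -6.21 and -4.72. Of 16 linker histone, histone variant and nucleoplasmin genes 7 were higher and 8 lower, 4 and 8 under all scalings. These were 43.8% and 50.0%, beside 41.5% and 37.2% of all genes, so the share of higher genes was near that of all genes. Npm2, the nucleoplasmin that decondenses sperm chromatin, had no PGC count and 128 to 179 CPM in oocytes, at least 538-fold higher. The somatic-type variants H2afz, H2afx and H2afy fell by 2.72, 2.96 and 4.28 on the log2 scale.

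Small RNA pathways silence transposons in the germ line, by piRNAs and, in mouse oocytes, largely by siRNAs made by DICER1. In this list 12 of 26 genes were higher and 10 lower (median 0.56), 4 and 10 under all scalings. These are 46.2% and 38.5%, close to the shares of all genes. Piwil2, or MILI, fell from 98.4, 74.2, 85.7 and 83.7 CPM to 1.14, 0.370, 0.632, 1.51 and 0.426 CPM (log2 fold change -6.68, SE 0.43). Dicer1 rose from 27.1, 37.1, 38.1 and 44.9 CPM to 431, 374, 373, 420 and 327 CPM (log2 fold change 3.38, SE 0.22). Piwil1 rose by 7.56, from at most 1.20 CPM to 63.0 to 112 CPM. Mov10l1 and Fkbp6, partners of the PIWI proteins, fell by 3.68 and 6.20 on the log2 scale. Ddx4, the vasa helicase that marks the germ line, was at 638, 148, 213 and 88.3 CPM in PGCs and at 65.3, 33.3, 41.3, 579 and 486 CPM in oocytes. Its log2 fold change of -0.17 was not called, and the oocyte values fell into 2 ranges by set.

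PGCs at E13.5 have been dividing, and replication and proliferation genes were lower in 24 of 47 oocyte comparisons and higher in 13 (median -0.70), 24 and 4 under all scalings. These were 51.1% and 27.7%, beside 37.2% and 41.5% of all genes. The polymerase subunit Pold1, the flap nuclease Fen1 and the clamp loader subunit Rfc4 fell by 7.36, 6.36 and 6.06 on the log2 scale. Top2a was at 587, 354, 571 and 544 CPM and at 219, 135, 167, 148 and 181 CPM (log2 fold change -1.60, SE 0.22). Mcm2 was at 667, 161, 534 and 422 CPM and at 774, 616, 592, 731 and 636 CPM, and its log2 fold change of 0.59 did not pass (adjusted p = 0.121) and was -1.07 with library size alone. Origin recognition genes Orc5 and Orc6 and cyclin E2 (Ccne2) rose by 4.38, 3.34 and 2.86.

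Most ribosomal protein genes and proteasome subunits were PGC-high. All 81 tested cytosolic ribosomal protein genes were lower in oocytes (median -5.89), under every scaling, against 37.2% of all genes. Rpl3 was at 999, 308, 585 and 563 CPM in PGCs and at 4.16, 2.47, 4.98, 6.56 and 13.6 CPM in oocytes (log2 fold change -6.59, SE 0.55), and Rps3 was at 506 to 1349 CPM and at 5.84 to 17.2 CPM (log2 fold change -6.39). Of 77 mitochondrial ribosomal protein genes 56 were lower (72.7%) and 10 higher (13.0%), with a median of -2.50, and 56 and 0 held under all scalings. Proteasome subunits were lower in 26 of 40 (65.0%) and higher in 9 (22.5%), with a median of -1.82, and 26 and 4 held under all scalings. Among all genes 37.2% were lower and 41.5% higher. Ribosomal protein genes have many processed pseudogenes, which can take a part of their reads.

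Energy metabolism genes followed. Of 77 nuclear genes of oxidative phosphorylation 73 were lower and 2 higher (median -3.60), 73 and 0 under all scalings. The 73 and 2 were 94.8% and 2.6%, beside 37.2% and 41.5% of all genes. The share of counts on these 77 genes went from 1.86 to 2.74% to 0.132 to 0.152%. Cox4i1, a subunit of cytochrome c oxidase, was at 701, 378, 378 and 364 CPM and at 6.17, 5.59, 7.27, 9.03 and 13.5 CPM (log2 fold change -5.77, SE 0.35). Sdha of complex II was not called, at 463, 149, 300 and 281 CPM and 430, 311, 340, 383 and 370 CPM, with a log2 fold change of 0.30 that was -1.37 with library size alone. Among mitochondrially encoded genes 8 of 10 tested were lower and none higher (median -1.78), under all scalings too. COX1 was at 19410, 9102, 15340 and 9959 CPM and at 4062, 2925, 1368, 1498 and 3743 CPM (log2 fold change -2.31, SE 0.38). COX2, ATP6 and ATP8 held at most 0.546 CPM in every library, beside 1368 CPM or more of COX1, and were not tested.

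Glycolysis and glucose transport genes were lower in 14 of 22 and higher in 2 (median -2.33), 14 and 1 under all scalings. The 14 and 2 were 63.6% and 9.09%, beside 37.2% and 41.5% of all genes. Slc2a3, the neuronal-type glucose transporter (chr6:122727809-122802363), was at 102, 34.4, 159 and 135 CPM and at 0.536, 0.534, 0.474, 0.849 and 0.32 CPM (log2 fold change -7.60, SE 0.50). Pkm, pyruvate kinase, was at 1831, 291, 1487 and 1150 CPM and at 105, 59.2, 93.8, 98.2 and 139 CPM (log2 fold change -3.59, SE 0.45). Ldhb, whose subunit forms the lactate dehydrogenase of eggs, rose from 216, 45.5, 137 and 108 CPM to 1824, 1127, 1318, 1277 and 1401 CPM (log2 fold change 3.46, SE 0.40). Oocytes rely on pyruvate supplied by cumulus cells. They also take cholesterol from them, and in the cholesterol list 15 of 23 genes were lower and 8 higher (median -1.60), 14 and 4 under all scalings. The 15 and 8 were 65.2% and 34.8%, beside 37.2% and 41.5% of all genes. Sqle and Cyp51 of the synthesis pathway fell by 2.40 and 2.84 on the log2 scale, while Hmgcs1 at its entry rose by 2.26.

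X-linked genes leaned towards PGCs. Of 526 tested, 36.1% were higher and 42.8% lower in oocytes with a median log2 fold change of -0.31, beside 41.9% and 36.7% with a median of 0.20 for 13654 autosomal genes. The 14 Rhox genes are among the X-linked genes that were lower, and the filter fixed the direction of those with no oocyte count. Both X chromosomes are known to be active in female germ cells at and after this age, and the difference was not tested.

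The 36 single oocytes made it possible to see which values were shared by all of them. Over 5354 genes with a median of at least 10 raw CPM, the median coefficient of variation was 0.38. Btg4 was among the most even, with 4220 to 11500 raw CPM and a coefficient of 0.159. Rhox9, Rhox6, Stra8, Spo11 and H19 had no count in any of the 36, and Nanog had counts in 25 of them, at 4.76 raw CPM or less. In 60 of these genes (1.12%) the set medians lay at least 4-fold apart.

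Ddx4 and Aurkc were 2 named genes whose level followed the set. Ddx4 had set medians of 31.0, 19.8, 20.6, 305 and 296 raw CPM, with sets 92-4 and 92-5 above the others, a ratio of 14.7 from highest to lowest. Aurkc, the meiotic Aurora kinase, had set medians of 229, 203, 233, 45.2 and 51.5, and the same 2 sets were low. Chosen after their values were seen, Mtfr2 had set medians of 27.2, 774, 32.8, 537 and 519, and Khdc1c of 373, 578, 14.6, 19.7 and 20.1. The labels do not tell what distinguishes the sets, nor whether a set is a female, a day or something else. Between stages, Ddx4 was called lower (-2.37, adjusted p = 0.0338) when sets 35-1 and 35-3 alone were used.

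Of the single oocytes, 4 differed from the other 32. They were oocytes 10 and 14 of set 35-3, 27 of set 92-4 and 30 of set 92-5, and their median correlation with the other oocytes was 0.542 to 0.687, against 0.891 to 0.946 for the 32. Among themselves they correlated at 0.767 to 0.902. Their totals were 4991194, 4574573, 839781 and 2187490 counts. The 4 oocytes were picked for this difference, and the values that follow are a description with no test.

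The 4 held little of several mRNAs that were abundant in each of the 32. Gdf9 was at 109, 265, 269 and 211 raw CPM in oocytes 10, 14, 27 and 30 and at 11400 to 19600 in the others. H1foo was at 74.1, 256, 236 and 146 against 11900 to 20200, Padi6 at 46.1, 62.3, 100.0 and 67.2 against 357 to 1670, and Zar1 at 4.01, 18.8, 16.7 and 17.4 against 1170 to 3780. Zp3 was at 2.62 to 5.21 against 29.1 to 113, and Dnmt1 at 10.9 to 46.5 against 255 to 943. None of these ranges overlapped.

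Other mRNAs were not low in this way. Nlrp5 was within the range of the 32, at 115 to 190 against 76.9 to 236. Pou5f1 was at 421, 443, 592 and 396 against 41.1 to 105, Lin28a at 324 to 677 against 81.4 to 213, and Wee2 at 1690 to 2350 against 770 to 1170. Spin1 was at 34400 to 56700 against 27300 to 37300, and Btg4 at 7430, 7870, 4220 and 11500 against 5300 to 8070, so that it was below that range in oocyte 27 and above it in oocyte 30. Mitochondrially encoded genes took 2.11, 0.447, 3.68 and 2.42% of counts against 0.202 to 0.788%. Summed cumulus markers were at 42.3, 82.2, 88.1 and 40.2 raw CPM in the 4, within the range of 0.797 to 721 in the 32, and pregranulosa markers at 59.5 to 99.7, within 23.6 to 133. Stroma markers were at 10.0, 8.31, 32.2 and 2.74 against 0 to 11.8, so that oocyte 27 was above. Immune markers were at 0.801, 2.19, 13.1 and 14.2 against 0.532 to 6.55, so that oocytes 27 and 30 were above, and the part of such cells was not tested. Rhox9 had no count in the 4, and Nanog was at 0, 0, 4.76 and 2.74 against 0 to 1.66.

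**Figure D5:**
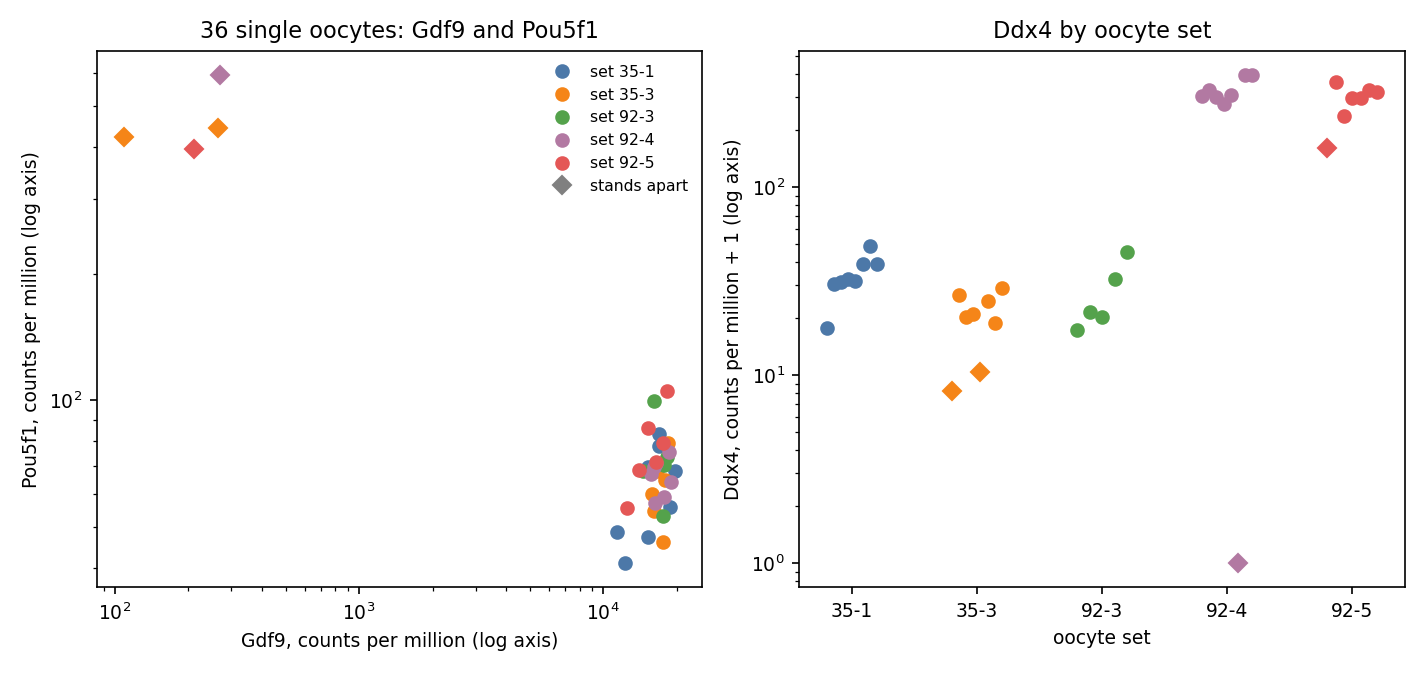
Left, Gdf9 against Pou5f1 in each of the 36 single oocytes, in raw CPM on log axes, by set; right, Ddx4 with 1 added by set. The 4 oocytes that stand apart (diamonds) hold Gdf9 at 109 to 269 and Pou5f1 at 396 to 592 while the other 32 hold Gdf9 at 11400 to 19600 and Pou5f1 at 41.1 to 105, and Ddx4 is high in sets 92-4 and 92-5.

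The same change between stages was compared with that in IVF germ cells, which were 5 PGC libraries and 40 oocytes in 5 sets, by an interaction term in one edgeR fit of both modes of conception. Of 17368 genes tested, 0 passed an adjusted p of 0.05, 1247 had an unadjusted p below 0.05, and DESeq2 called 38. The smallest adjusted p was 0.0976, shared by D430041D05Rik, Dbt and Ldhd. The log2 fold change of Dbt, a subunit of branched-chain ketoacid dehydrogenase, was 1.73 in Natural and 5.72 in IVF, and that of Ldhd, a D-lactate dehydrogenase, 6.37 and 12.70. D430041D05Rik was at 1.89 CPM in Natural PGC library 2 and at 0.355 CPM or less in every other Natural library.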

How the data were processed

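Per the labels and the study's methods, poly(A) RNA was amplified by a modified SMART-Seq protocol with 10 cycles and sequenced after Nextera XT tagging. The submitters' processing notes name Trimmomatic 0.32, STAR 2.3.0e, featureCounts 1.5.0, DESeq2 and the mm10 build. The authors deposited whole-number read counts per gene name, not normalized, with no unique molecular identifiers, and 35976 names were read here. Oocyte counts were summed by set, read from the first 2 fields of the library name. Genes passing edgeR's filterByExpr (14543) were fitted with edgeR 4.0.16 (quasi-likelihood, TMM, adjusted p 0.05) in R 4.3.3. Conception was tested by an interaction term. Alternatives used DESeq2 1.42.0 and limma 3.58.1 voom, other scalings and filters, thinning, single oocytes and left-out libraries. Folds against an all-zero group used 3 counts per library as the floor, and counting intervals (exact binomial) cover counting error only. Of nonzero counts, 60.3% were even in the PGC libraries and 73.6% in the oocyte libraries. The floor and the intervals take counts as independent. If counts came in pairs, the intervals are too narrow and 2 counts may be a single event, which was not tested. The members and gene lists were chosen with earlier results of these data known. The rule for named genes took marked list members, paralog pairs, the 10 largest rises and falls with at least 10 counts in each library of the higher group, the 5 most counted genes per stage and the 3 smallest interaction p-values. Other list members were named after their values were seen. The fit was also run on simulated data in which only a small part of the genes changed. Such a run does not show how the fit behaves where most genes change, as between these stages. Some named genes are not reported here. Promoters are from RefSeq (GRCm38.p6). The series' design text gives other numbers of oocytes than the labels, which were followed here.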

Additional observations from a re-analysis of the deposited data

Results flagged for a closer look

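Among 180 groups of 4 or 5 libraries, 13 (7.22%) held a library far from the rest of its group, and chance flags about 1 in 20 groups. Of the 13, 11 concerned PGC library 2. Its counts held 0.231% on meiotic entry genes and 0.371% on meiotic prophase genes, above the other PGC libraries, and 0.312% on glycolysis genes, below them. In CPM, Pou5f1 at 36.5, Prdm14 at 10.5, Utf1 at 64.7 and Top2a at 354 were low in it. Figla at 6.33, Ybx2 at 55.2, Wee2 at 0.897 and Tet3 at 6.88 were high in it. Outside that library, Id1 was low in PGC library 3, at 26.8 CPM, and Cox4i1 was high in PGC library 1, at 701 CPM.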

How the results depend on the processing

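No paired analysis was possible because the oocyte sums carry no replicate number that the PGC libraries share. Of 1606 values of 75 named genes under the alternatives, 1583 kept direction and side of the threshold. With library size alone Pou5f1 (-0.98), Sycp3 (-1.76), Sdha (-1.37) and Mcm2 (-1.07) turned, and Dppa3 (0.56), Cpeb1 (0.45) and Dnmt1 (0.23) were no longer called. Of 527 list values 9 changed side of the median of all genes. For meiotic prophase the distance from it was 0.04 with at least 10 counts in every library, 0.66 without the apart oocytes and PGC library 2, and -1.89 to 0.63 over left-out libraries, the highest without PGC library 2. For DNA methylation it was 0.05 after thinning, 0.32 with sets 35 only, 0.12 with sets 92 only and -0.27 to 0.02 over left-out libraries. With 10 counts in every library, which removes genes absent from PGCs, oocyte transcription factors stood at -0.45 and egg coat genes at -1.57, and 6580 genes were called, 3589 of them strongly. With 36 single oocytes 4604 were strongly called. Genes detected differed by -3074 with the mean of single oocytes, at the lower depth of 839781 counts. Interaction calls were 38 with DESeq2, 5 without a filter and 0 to 5 over left-out libraries, with 5 without Natural PGC library 2, 3 without Natural PGC library 4, 2 without Natural set 92-5, 1 without each of 2 IVF oocyte sets and 0 otherwise. Except for the construction of the 10-count filter, the cause was not tested. Leaving out apart oocytes was chosen after seeing the data.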
